A study of Mus musculus with 61 samples.

Results

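Pdx1 and MafA were compared as single factors, in mouse pancreatic duct organoid cells that carried neither the other factor's reporter nor that of Ngn3. The comparison rests on 18 of the 61 libraries of the series, chosen by the reporters used in the sort: 9 libraries of 4 biological samples positive for Pdx1 only, and 9 libraries of 5 biological samples positive for MafA only. All 18 had more than 1000000 counts on genes, and technical repeats of a sample were summed. The whole series was summed to 32 biological samples of 12 conditions in the same way.

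Pdx1 is a homeodomain transcription factor that is needed for the pancreas to form and is later kept mainly in β-cells, where it binds the insulin promoter together with other factors. MafA belongs to the large Maf proteins of the basic leucine zipper class, appears late in β-cell maturation and also binds the insulin promoter. Ngn3, encoded by Neurog3, is the bHLH factor that commits pancreatic progenitors to the endocrine lineage, and the 3 factors together are a common recipe for turning exocrine cells into β-like cells. Comparing Pdx1 with MafA in the absence of Ngn3 asks how the identity of a single factor is read in duct cells.

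All groups shared the same background. The organoids were grown from ducts of C57BL/6 mice and were infected with all 3 doxycycline-inducible lentiviral vectors, GFP with Ngn3, LSSmOrange with Pdx1 and tdTomato with MafA, plus a vector for the Tet-On 3G transactivator under the PGK promoter. Doxycycline was given for 8 days, and pools of 50 cells of the same colour were sorted for each library. A WT culture had received the wild-type Ngn3 vector and a 6SA culture the phospho-mutant form, but the cells described here had been sorted without the Ngn3 reporter. There were 2 Pdx1 samples from WT and 2 from 6SA cultures, and 2 MafA samples from WT and 3 from 6SA cultures. Replicates 1 and 2 came from organoids at passage 2, and MafA replicate 3 of the 6SA cultures, a single library, came from passage 5. Uninfected cells were not analysed here, so every value below sets the 2 factors against each other and none says which of them moved a gene. The labels do not say whether replicate numbers stand for separate mice, so p-values measure the spread between these samples.

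Totals on genes ran from 3659375 to 18555026 counts in the Pdx1 samples and from 3339874 to 18286434 in the MafA samples. The level that 3 counts can show was between 0.168 and 0.838 CPM (counts scaled to a library of 1000000) with Pdx1 and between 0.173 and 0.925 CPM with MafA, and this limit covers counting error only. Replicates differed in make-up whatever the factor. Reads that fell on more than 1 gene were 4.60 to 6.48% of each library in replicate 1 and 8.26 to 12.5% in replicates 2 and 3, and unaligned reads were 15.9 to 19.1% against 20.3 to 27.9%. The MafA sample of passage 5 had the fewest genes with a count, 14574, and the lowest scaling factor, 0.697. The duct identity on the label was met by its markers. The 22 of 24 duct genes that could be tested summed to between 63271 and 96216 CPM with Pdx1. With MafA they summed to between 59890 and 150175 CPM. These sums were mostly Clu (32763 to 73869 CPM over the 9 samples) and Spp1 (8039 to 52241 CPM). Krt19 read 760 to 1186 CPM and Sox9 45.0 to 257 CPM. Markers of other cells were low. Cpa1, Pnlip and Amy2a5 of acinar cells, Col1a2, Pdgfra and Pdgfrb of mesenchymal cells, Cdh5 and Kdr of endothelial cells and Ptprc of leukocytes had no count in any of the 9 samples. The tested markers of acinar cells summed to at most 17.1 CPM, those of mesenchymal cells to at most 107.6 CPM (mostly Vim), those of endothelial cells to at most 1.56 CPM and those of immune cells to at most 27.0 CPM. Fcer1g, an immune marker, had 10 counts in the MafA samples and none with Pdx1, and no other marker of these lists had an unadjusted p under 0.05.

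The reprogramming factors themselves were a weak check on the sort, because the counts cannot separate vector from endogenous transcripts. Whether vector transcripts were counted at all was not tested. With the Pdx1 vector, Pdx1 read 31.7 and 11.2 CPM (WT) and 37.7 and 14.4 CPM (6SA). In the MafA samples it read 19.3 and 8.33 CPM (WT) and 19.2, 10.9 and 4.22 CPM (6SA). Pdx1 was thus higher with its own vector in each of the 4 pairs that shared a culture and a replicate number, while the groups overlapped, and the log2 difference of 0.90 ± 0.58 (SE) had an unadjusted p of 0.135 in edgeR's quasi-likelihood test. Mafa had 1 count in 1 Pdx1 sample and none in the other 3. With MafA it had 1 and 3 counts in the WT cultures and 6, 7 and 12 counts in the 6SA cultures, which is 0.107 to 3.16 CPM. All 5 MafA samples lay above the 4 Pdx1 samples, although the transcript was counted at a very low level even with its own vector (edgeR unadjusted p = 0.00516, adjusted p = 1.0). Neurog3 stayed between 0 and 0.788 CPM in all 9 samples.

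**Figure D1:**
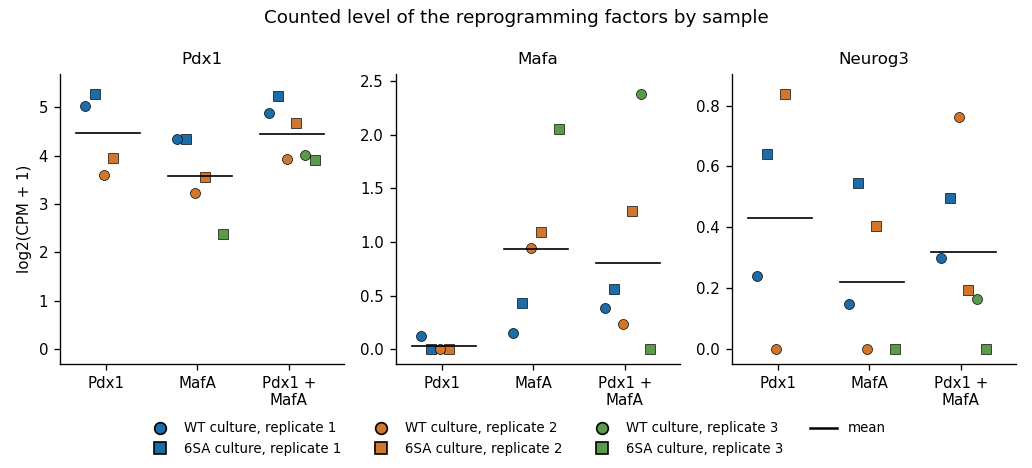
Level of Pdx1, Mafa and Neurog3 in each sample, as log2(CPM + 1), for cells with Pdx1, with MafA and with both factors; each panel has its own scale, points are biological samples and lines are means. Pdx1 was counted in every group and overlapped between Pdx1 and MafA cells, Mafa was close to 0 in Pdx1 cells and Neurog3 was below 1 CPM throughout.

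Across all genes few or none passed the test in the filtered fits of all 12 conditions. Other fits passed more, such as 113 without the gene filter and 123 on only the 4 conditions of the comparison. Of 24004 genes tested in 1 edgeR quasi-likelihood model of all 12 conditions, with the contrast taken within each culture and averaged, 0 (0.0%) had a Benjamini-Hochberg adjusted p under 0.05. At an unadjusted p under 0.05 there were 675 genes (2.81%), of which 441 (1.84%) were higher with Pdx1 and 234 (0.975%) lower. DESeq2 called 24 genes (0.1%), 18 higher with Pdx1 (0.075%) and 6 lower (0.025%). The WT and 6SA cultures alone also gave 0 genes each, with 254 (1.06%) and 392 (1.63%) at an unadjusted p under 0.05 and 14 and 8 calls by DESeq2. Every Pdx1 sample lay above every MafA sample for 197 genes (0.821%), and the reverse held for 75 genes (0.312%). Because same-numbered samples of a culture deviated together, the fit was repeated with the replicate number as a block. Then 1 gene (0.00417%) passed, Bcl2l14, and 2 genes (0.00833%) passed when each culture and number formed a block, Bcl2l14 and Gkn3. The genes below are the 15 higher and the 15 lower with Pdx1 that had the lowest p, described by their values.

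Bcl2l14, which encodes a member of the Bcl-2 family of apoptosis regulators, had the lowest p of all genes. It lies on the plus strand of chromosome 6, from 134396318 to 134438736 (GRCm38). In the Pdx1 samples it read 18.7 and 10.6 CPM (WT) and 35.4 and 4.61 CPM (6SA). In the MafA samples it read 0.107 and 0 CPM (WT) and 0.173, 0 and 0 CPM (6SA), 4 counts in all. The groups did not overlap, and the transcript was counted in 8 of 9 Pdx1 libraries and in 2 of 9 MafA libraries. The log2 difference was 7.52 ± 1.56 (SE), with edgeR adjusted p = 0.669 without the block, 0.00579 when blocked by replicate number and 0.000958 when blocked by culture and number. Bcl2l14 therefore passed the test once the pairing of the samples was used, and was higher with Pdx1 in 4 of 4 pairs.

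Gkn3 encodes a gastrokine, a secreted protein of the stomach lining, and lies on the minus strand of chromosome 6 from 87383256 to 87388935 (GRCm38). It read 314 and 15.4 CPM with Pdx1 in the WT cultures and 106 and 15.5 CPM in the 6SA cultures. With MafA it read 1.71 and 0.308 CPM in the WT cultures and 1.27, 0 and 0 CPM in the 6SA cultures. Both replicate 1 samples were the highest within their factor and culture, and the lowest Pdx1 sample was still above the highest MafA sample. The log2 difference was 6.93 ± 1.64 (SE), with edgeR adjusted p = 0.774 without the block, 0.0721 when blocked by replicate number and 0.0238 when blocked by culture and number.

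Gna14, the α subunit of a Gq-class G protein, showed the same layout. It read 34.8, 7.82, 42.1 and 4.95 CPM in the 4 Pdx1 samples (WT replicates 1 and 2, then 6SA replicates 1 and 2), against 0.864 CPM in MafA replicate 1 of the 6SA cultures and 0 in the other 4 MafA samples. The groups did not overlap and all 9 Pdx1 libraries had counts, but the edgeR adjusted p was 0.957, and 0.0588 with blocks by culture and number.

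Of the remaining genes on the Pdx1 side, some had few or no counts with MafA and others were clearly counted with either factor. Csgalnact1, an enzyme that starts chondroitin sulfate chains, read 22, 0.838, 26.9 and 4.95 CPM with Pdx1 and had no count in any MafA sample, which makes it at least 25.4-fold higher with Pdx1 against the mean level of 3 counts per MafA sample. Ptpru, a receptor-type tyrosine phosphatase, read 5.50, 2.52, 3.47 and 1.69 CPM with Pdx1 and also had no count with MafA, which makes it at least 6.11-fold higher. The lincRNA Gm11419 was at least 4.73-fold higher by the same measure, with 0.559 to 5.21 CPM in the Pdx1 samples. Rundc3b and the Notch ligand Dll4 had no count with MafA either, but 1 or 2 of the 4 Pdx1 samples also had none: Dll4 read 4.33 and 4.76 CPM in both replicate 1 samples and 0 in both replicate 2 samples. Erfe, the iron-regulating hormone erythroferrone, read 2.07 to 13.4 CPM with Pdx1 and at most 1.21 CPM with MafA. Fetub, a secreted protease inhibitor, read 1.13 to 20.05 CPM with Pdx1 and at most 0.749 CPM with MafA. None of these 7 genes passed the edgeR test (lowest adjusted p 0.669).

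Among genes expressed with either factor, Dclk1, a kinase known as a marker of tuft cells, was the most abundant. It read 596 and 181 CPM with Pdx1 in the WT cultures and 563 and 123 CPM in the 6SA cultures. With MafA it read 76.4 and 117 CPM (WT) and 127, 44.4 and 34.3 CPM (6SA). It was higher with Pdx1 in 4 of 4 pairs, but the lowest Pdx1 sample, at 123 CPM, was below the highest MafA sample, at 127 CPM (log2 difference 2.17 ± 0.56 SE, edgeR unadjusted p = 0.000663, adjusted p = 1.0). Aldoc, the glycolytic enzyme aldolase C, read 228, 48.3, 294 and 112 CPM with Pdx1 against 62.8, 28.7, 53.8, 42.6 and 45.9 CPM with MafA, and the groups overlapped in the WT replicate 2 sample only. F5, coagulation factor V, read 70.0, 19.6, 116 and 12.6 CPM with Pdx1 and 2.37 to 11.9 CPM with MafA without overlap. Tmem132c read 8.66 to 49.2 CPM with Pdx1 and 0 to 5.57 CPM with MafA, also without overlap, and Spock3, a secreted proteoglycan, read 0 to 23.3 CPM against 0 to 0.807 CPM. In 10 of the 15 genes the groups did not overlap (0.821% of all genes in this direction), and 12 of 15 were higher in all 4 pairs, as were 8.06% of all genes. Both counts follow from choosing genes by their p.

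On the MafA side Clec2e, a C-type lectin-like membrane protein, had the lowest p. It lies on the minus strand of chromosome 6 from 129091998 to 129100913 (GRCm38). It read 7.82 and 25.3 CPM with MafA in the WT cultures and 7.61, 35.8 and 70.1 CPM in the 6SA cultures. With Pdx1 it read 0.811 and 0.559 CPM (WT) and 0.84 and 0 CPM (6SA). The groups did not overlap, their nearest samples being 7.61 CPM with MafA and 0.84 CPM with Pdx1, and the passage 5 sample was the highest. The log2 difference was -5.42 ± 1.22 (SE) for Pdx1 against MafA, with edgeR adjusted p = 0.669, and 0.164 with blocks by culture and number.

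Slc7a2, a transporter of cationic amino acids, read 11.6, 21.3, 13.4, 8.43 and 8.70 CPM in the 5 MafA samples and 1.44, 1.96, 4.87 and 4.05 CPM in the 4 Pdx1 samples, without overlap (log2 difference -2.24 ± 0.52 SE, edgeR unadjusted p = 0.000194). Ttr, transthyretin, a carrier of thyroid hormone and retinol made in liver and islets, read 17.0, 44.4, 21.2, 21.9 and 10.8 CPM with MafA and 2.16, 3.91, 2.30 and 7.43 CPM with Pdx1, again without overlap (log2 difference -2.64 ± 0.72 SE, edgeR unadjusted p = 0.00103). Both had adjusted p values above the threshold, 0.669 for Slc7a2 and 1.0 for Ttr. Arhgap24 had 2 counts in the Pdx1 samples altogether and read 3.32, 6.79, 1.15, 0.648 and 0 CPM with MafA. Bmp2, a secreted ligand of the BMP pathway, read 2.89, 15.7, 9.86, 17.7 and 0 CPM with MafA and 1.26, 1.12, 3.08 and 0.113 CPM with Pdx1, and the groups overlapped through MafA replicate 1 of the WT cultures and the passage 5 sample. Dab2, an endocytic adaptor, read 0 to 14.4 CPM with MafA and 0 in 3 of 4 Pdx1 samples.

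AA474408, an unclassified transcript of chromosome 7, was listed for a single sample. It read 1972 CPM in MafA replicate 2 of the WT cultures, 4.38 to 8.44 CPM in the other 4 MafA samples and 2.52 to 22.1 CPM with Pdx1. Without that sample the log2 difference was 0.50 in place of -3.27. The other members of the 15 with MafA were Mafa itself, the adaptor gene Shc4 and 6 genes of little-studied classes (Gm24530, 4932422M17Rik, Gm37607, Gm3830, Gm9085 and Gm5248), of which none exceeded 7.91 CPM in any of the 9 samples. In 7 of the 15 genes the groups did not overlap (0.312% of all genes in this direction), 12 of 15 were lower with Pdx1 in all 4 pairs (6.45% of all genes), and 7 had at most 3 counts in every Pdx1 sample. The first 2 of these counts follow from choosing genes by their p. DESeq2 called 11 of the 15 genes named on the Pdx1 side, among them Bcl2l14 (adjusted p = 0.000972), and 4 of the 15 on the MafA side, among them Clec2e (adjusted p = 0.000348).

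**Figure D2:**
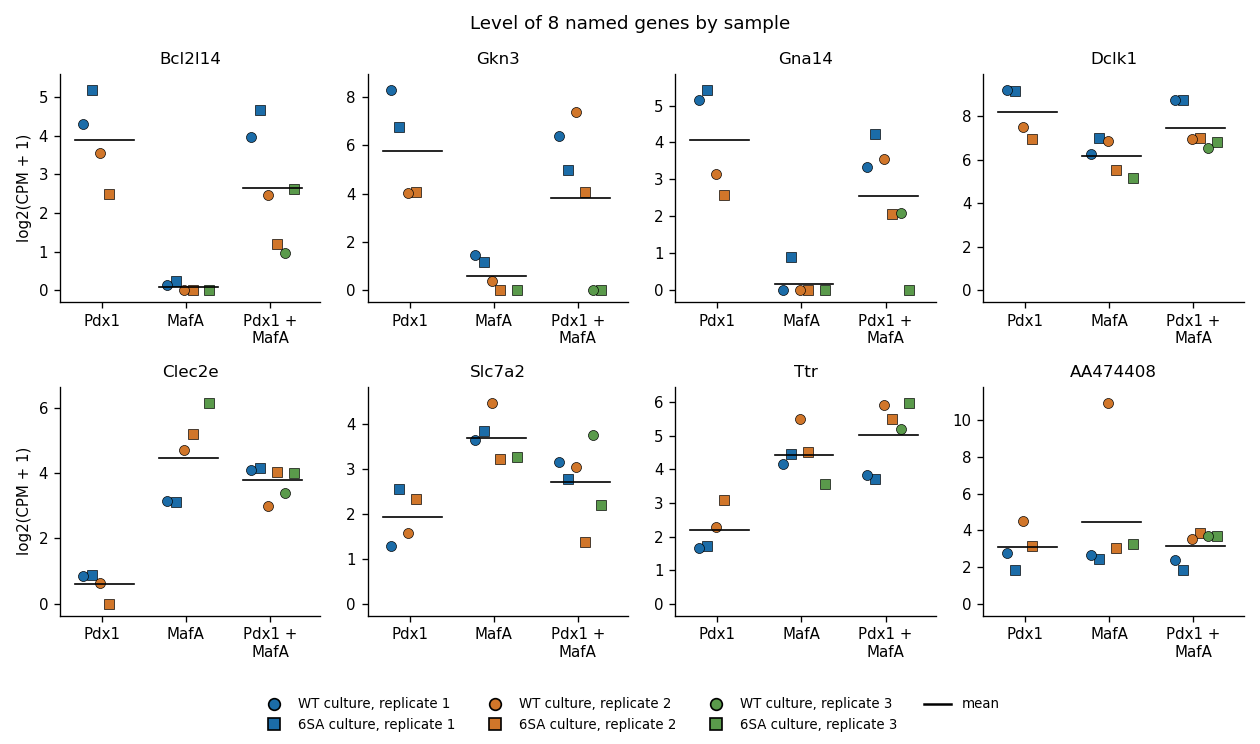
Level of 8 named genes in each sample, as log2(CPM + 1), for cells with Pdx1, with MafA and with both factors; each panel has its own scale, points are biological samples and lines are means. Bcl2l14, Gkn3 and Gna14 were at or near 0 in MafA cells, Clec2e was near 0 in Pdx1 cells, and AA474408 was high in 1 MafA sample.

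The sequence upstream of these genes was read for short motifs of the 2 factor classes. The search covered 3 motifs on both strands of the 250 bases before each RefSeq transcript start (GRCm38.p6): TGCTGA, the core that large Maf proteins recognise, TGACTCA, the AP-1 site of other basic leucine zipper factors, and TAATTA, a core bound by many homeodomain proteins. Of 32851 such windows, 16.08% held TGCTGA, 4.463% held TGACTCA and 4.84% held TAATTA. Of the 15 genes named on the Pdx1 side, 14 had a window, 21 windows in all, of which 2 held TGCTGA, 1 held TGACTCA and 2 held TAATTA. Of the 15 on the MafA side, only Clec2e, Shc4 and Dab2 were matched in the promoter sequences used here. Their 4 windows held TGCTGA in 2, TGACTCA in 1 and TAATTA in 0. The rest, among them Slc7a2, Ttr, Bmp2, Arhgap24 and Mafa, had no match, so these windows do not describe the MafA side as a whole. A window of each of Bcl2l14, Gkn3 and Clec2e, 3 genes whose groups did not overlap, is printed 5′ to 3′ along the gene's strand, with any match in capitals. Bcl2l14 is at chr6:134396079-134396328 on the plus strand and held none of the motifs (nor did its second window, not printed), Gkn3 is at chr6:87388936-87389185 on the minus strand and held TCAGCA, the reverse of TGCTGA, and TAATTA, and Clec2e is at chr6:129100904-129101153 on the minus strand and held TGCTGA.
Bcl2l14: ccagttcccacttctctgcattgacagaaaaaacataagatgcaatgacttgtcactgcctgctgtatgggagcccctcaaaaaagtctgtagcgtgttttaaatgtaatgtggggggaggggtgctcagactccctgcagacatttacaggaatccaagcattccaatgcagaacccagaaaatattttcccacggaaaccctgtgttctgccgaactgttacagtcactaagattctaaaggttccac
Gkn3: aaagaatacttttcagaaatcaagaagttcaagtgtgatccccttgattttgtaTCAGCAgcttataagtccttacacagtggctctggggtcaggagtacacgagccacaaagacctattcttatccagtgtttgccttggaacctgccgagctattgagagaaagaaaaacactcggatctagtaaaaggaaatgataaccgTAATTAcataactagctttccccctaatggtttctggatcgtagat
Clec2e: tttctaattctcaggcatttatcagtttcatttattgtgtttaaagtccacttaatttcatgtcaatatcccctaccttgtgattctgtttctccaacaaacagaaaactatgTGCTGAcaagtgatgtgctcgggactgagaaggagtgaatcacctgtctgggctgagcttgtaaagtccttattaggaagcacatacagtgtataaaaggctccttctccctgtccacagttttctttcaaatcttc
In Gkn3 the TAATTA began 46 bases and the TCAGCA 196 bases before the start, and in Clec2e the TGCTGA began 137 bases before it. A match to these letters is a description of the sequence, not a bound site.

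The widest pattern among the gene lists was in the cell cycle. All 24 mitosis genes, which encode cyclins, kinases and spindle proteins of dividing cells, had a log2 difference above 0, with a median of 2.10, beside a median of 0.00 over all 24004 genes. Of these 24 genes 10 had an unadjusted p under 0.05, all higher with Pdx1, beside 1.84% of all genes. A total of 22 were higher with Pdx1 in all 4 pairs, beside 8.06% of all genes. Of the 9812 genes with a mean of at least 10 CPM, 114 had such a p in that direction and 1301 were higher in all 4 pairs. None of the 24 passed the adjusted threshold in the edgeR model. Prc1, which bundles microtubules at the midzone of the dividing cell, had the lowest p of the list. It read 73.4 and 195 CPM with Pdx1 in the WT cultures and 48.0 and 170 CPM in the 6SA cultures, and with MafA 39.1 and 31.2 CPM (WT) and 26.9, 31.4 and 6.33 CPM (6SA). The groups did not overlap, and the log2 difference was 2.13 ± 0.74 (SE; edgeR unadjusted p = 0.00776, adjusted p = 1.0). Anln, a scaffold of the contractile ring, read 44.7, 129, 31.1 and 100.1 CPM with Pdx1 and 21.8, 28.4, 4.96, 20.7 and 1.58 CPM with MafA, also without overlap. Bub1b, a kinase-like protein of the spindle checkpoint, read 25.03 to 74.4 CPM with Pdx1 and 0 to 19.0 CPM with MafA. Mki67, the commonly used marker of cycling cells, overlapped between groups, at 49.2 to 434 CPM against 0 to 73.4 CPM (edgeR unadjusted p = 0.147).

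The mitosis genes also varied with the replicate. Their mean log2(CPM + 1) was 5.30 and 7.09 with Pdx1 in WT replicates 1 and 2, and 4.57 and 6.79 in 6SA replicates 1 and 2. With MafA it was 4.74 and 4.54 (WT) and 3.12, 4.65 and 0.98 (6SA), lowest in the passage 5 sample. Within each of the 4 pairs the Pdx1 sample was the higher. The groups overlapped, because the Pdx1 sample of 6SA replicate 1 was below 2 of the MafA samples. Without the passage 5 samples of every condition the median log2 difference of the list was 1.92. With the replicate number as a block it was 1.71, and 0 members passed. Cells with both factors, not part of the comparison, read between 3.32 and 7.35, with both replicate 2 samples the highest. In pools of sorted cells a larger share of dividing cells and more transcripts per dividing cell cannot be told apart.

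The 24 DNA replication genes, which encode the MCM helicase, the replication machinery and nucleotide synthesis, moved less. All 24 had a log2 difference above 0, with a median of 1.10, and 9 had an unadjusted p under 0.05, all higher with Pdx1, beside 1.84% of all genes. A total of 6 were higher in all 4 pairs, and none passed the adjusted threshold. The share in all 4 pairs was 8.06% of all genes, and 1301 of the 9812 genes with a mean of at least 10 CPM. Mcm5, a subunit of the helicase, read 76.4, 117, 81.5 and 116 CPM with Pdx1 and 72.9, 31.8, 51.9, 32.9 and 12.7 CPM with MafA, without overlap. Cdc45, which activates that helicase, read 16.2 to 90.2 CPM with Pdx1 and 3.16 to 22.7 CPM with MafA, with overlap. In the WT cultures the replicate 1 samples read close values for this list, a mean log2(CPM + 1) of 5.43 with Pdx1 and 5.57 with MafA, while replicate 2 read 6.44 against 4.45.

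**Figure D3:**
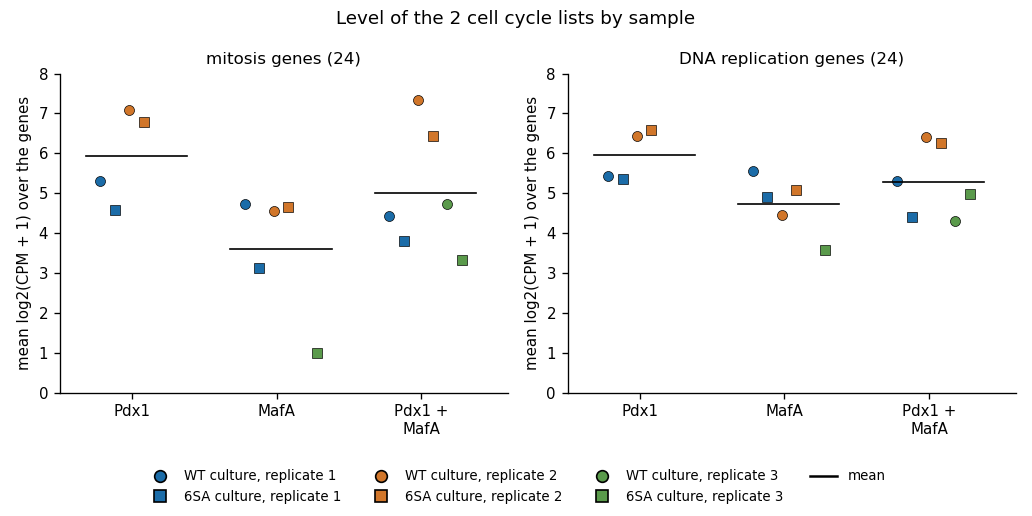
Mean log2(CPM + 1) over the 24 mitosis genes and over the 24 DNA replication genes in each sample, for cells with Pdx1, with MafA and with both factors; points are biological samples and lines are means. Replicate 2 samples with Pdx1 were the highest of the single-factor cells and the MafA sample of passage 5 was the lowest in both panels.

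Genes of the endocrine pancreas were sparsely counted in both groups. Ins1 and Ins2, the insulin genes, and the mature β-cell genes Slc30a8 and Ucn3 had no count in any of the 9 samples. Of 22 β-cell genes tested, 2 had an unadjusted p under 0.05 in edgeR, both higher with Pdx1 (1.84% of all genes). None passed in the edgeR model of all conditions. DESeq2 called Kcnj11 (adjusted p = 0.0359), which was higher with Pdx1 in 1 pair only. Kcnj11 read at most 0.504 CPM with Pdx1 and had no count with MafA. Abcc8, the sulfonylurea receptor subunit of the ATP-sensitive potassium channel, read 31.7 and 0 CPM (WT) and 20.3 and 2.25 CPM (6SA) with Pdx1. The 5 MafA samples read 0.214, 0, 1.44, 0.648 and 0 CPM. It was thus high in both replicate 1 samples with Pdx1 and low or absent in the rest (edgeR unadjusted p = 0.00216). Abcc8 passed when edgeR was fitted on only the conditions of the comparison (adjusted p = 4.67e-05). Glp1r, the receptor of the incretin GLP-1, read 0 to 5.94 CPM with Pdx1 and 0 to 2.37 CPM with MafA, with overlap. Iapp, the β-cell peptide amylin, read 46.5 CPM in Pdx1 replicate 1 of the 6SA cultures and at most 1.26 CPM in the other 8 samples. Among 13 tested hormone genes of other endocrine cells none had an unadjusted p under 0.05, and Sst, somatostatin, read 1.80 to 13.6 CPM with Pdx1 and 0.791 to 7.18 CPM with MafA. Of 23 granule and differentiation genes 1 did, the granule peptide gene Vgf, at 1.68 CPM or less.

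Of 31 homeodomain and other pancreatic transcription factors, 2 had an unadjusted p under 0.05, in opposite directions and neither past the threshold, beside 2.81% of all genes. Hnf4g, a nuclear receptor of gut epithelium, had 1 to 10 counts in each Pdx1 sample and none with MafA. Onecut2, a factor of pancreas and liver development, read 473, 822, 473 and 617 CPM with Pdx1 and 806, 1357, 808, 925 and 533 CPM with MafA, lower with Pdx1 in 4 of 4 pairs. Among the 10 tested Maf relatives and partners, which share or compete for the DNA sites of MafA, none had an unadjusted p under 0.05. Of the crystallins and other lens genes known as targets of Maf proteins only 5 of 12 could be tested, and none had an unadjusted p under 0.05.

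Of 24 tested genes of foregut, stomach and gut epithelium, 3 had an unadjusted p under 0.05, all higher with Pdx1 (1.84% of all genes), and the list's median log2 difference was 0.08. Besides Gkn3 these were 2 mucin genes. Muc13, a membrane mucin, read 17.8, 0, 14.0 and 0.90 CPM with Pdx1 and had no count with MafA. Muc5b, a secreted mucin, read 1.98, 0, 5.04 and 0.90 CPM with Pdx1 and had 1 count with MafA. All 3 genes were highest in the replicate 1 samples with Pdx1. The 22 tested duct genes held 1 with an unadjusted p under 0.05, Prom1, which encodes the apical membrane protein prominin 1. It read 3069, 1215, 4360 and 1582 CPM with Pdx1 and 1285, 1128, 1935, 1092 and 601 CPM with MafA, higher in 4 of 4 pairs (edgeR unadjusted p = 0.0259).

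In stress and signalling lists at most 1 member had an unadjusted p under 0.05. Il1rn, the antagonist of the interleukin 1 receptor, read 1580, 405, 1750 and 537 CPM with Pdx1 and 422, 319, 512, 597 and 577 CPM with MafA, so that both replicate 1 samples with Pdx1 stood above all others. Cd74, the invariant chain of MHC class II, read 86.8, 7.55, 36.5 and 6.75 CPM with Pdx1 and 2.11 to 5.51 CPM with MafA, without overlap (edgeR unadjusted p = 0.00788, adjusted p = 1.0). Gadd45a, a growth arrest gene among the 18 p53 targets, read 26.1, 50.9, 22.01 and 49.5 CPM with Pdx1 and 53.3, 74.3, 53.3, 112 and 127 CPM with MafA, also without overlap (edgeR unadjusted p = 0.0183). The 20 immediate early genes, 23 oxidative stress genes, 20 genes of secretory folding, 20 hypoxia and glycolysis genes, 20 cholesterol genes, 24 junction and keratin genes and 15 targets of YAP and TEAD had no member with an unadjusted p under 0.05. Their median log2 differences lay between -0.21 and 0.36. Of the 20 cholesterol genes 19 had a log2 difference above 0 and 3 were higher with Pdx1 in all 4 pairs. For the 20 hypoxia and glycolysis genes these counts were 15 and 13. Over all genes 11742 of 24004 were above 0 and 8.06% were higher in all 4 pairs. Of the 9812 genes with a mean of at least 10 CPM, 4868 were above 0 and 1301 were higher in all 4 pairs. The 16 genes of the Notch pathway had Dll4 alone.

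**Figure D4:**
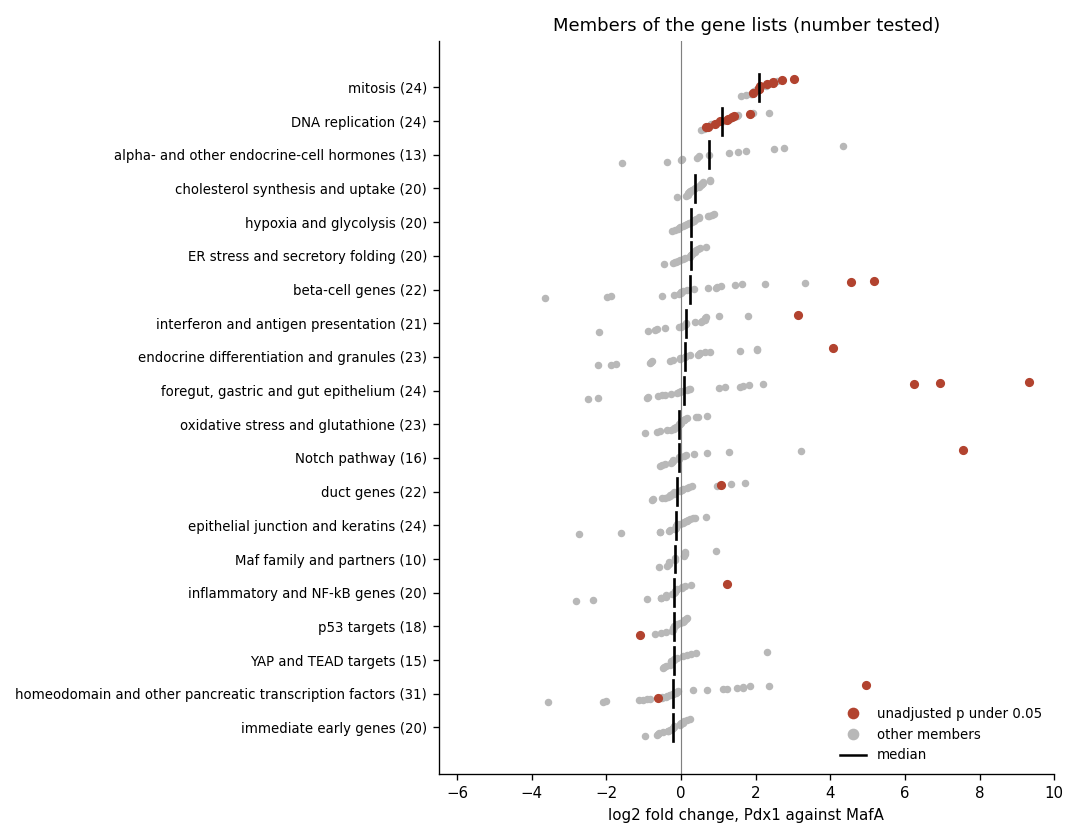
Log2 difference between Pdx1 and MafA cells for each member of the gene lists with at least 10 members tested; each point is a gene, red points had an unadjusted p under 0.05 and black bars are list medians. The mitosis list sat apart from 0 as a whole, with a median of 2.10, followed by DNA replication at 1.10, while the medians of the other lists lay between -0.21 and 0.75.

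The contrast could not be shown to differ between the cultures. The difference of the Pdx1 against MafA contrast between WT and 6SA cultures gave 0 genes past the threshold in edgeR, with 366 (1.52%) at an unadjusted p under 0.05, and DESeq2 called 7. For Bcl2l14 the log2 difference was 7.41 ± 2.35 (SE) in the WT and 7.63 ± 1.90 in the 6SA cultures, for Dclk1 it was 2.01 ± 0.84 and 2.32 ± 0.74, and for Clec2e -4.51 ± 1.70 and -6.33 ± 1.76. The median of the mitosis list was 1.79 in the WT and 2.53 in the 6SA cultures. For Slc7a2 the log2 difference was -3.28 ± 0.79 in the WT and -1.19 ± 0.67 in the 6SA cultures (edgeR unadjusted p = 0.0435 for the difference between cultures, adjusted p = 1.0).

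Cells that carried both factors without Ngn3, 6 samples of the same cultures, are given beside the single-factor cells. Their mean lay between the Pdx1 and the MafA mean for 14 of the 15 genes on the Pdx1 side and for 10 of the 15 on the MafA side. Bcl2l14 read between 0.963 and 24.3 CPM in them, with a median of 4.84 CPM. Gkn3 read between 0 and 163 CPM, with 0 in both passage 5 samples. Clec2e read between 6.97 and 16.9 CPM, above every Pdx1 sample, and Ttr between 12.01 and 62.3 CPM, above every Pdx1 sample as well. Contrasts of these cells with either single factor share samples with the main comparison. They are therefore not read here as separate evidence.

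The same swap of factors was made in cells that also carried Ngn3, in 12 samples that share none with the comparison above. Their labels carry the same cultures and replicate numbers, so the 2 sets of samples need not be independent. Both contrasts also came from 1 model with a shared spread for each gene. A low p in both is therefore not read here as separate evidence. There 32 genes (0.133%) passed the threshold in edgeR, 21 higher with Pdx1 (0.0875%) and 11 lower (0.0458%). At an unadjusted p under 0.05 there were 2065 (8.6%). The count past the threshold was 216 with the replicate number as a block. Of the 32 genes, 24 had the same sign of the log2 difference without Ngn3. Of the genes named above, 5 were among these. Dclk1 was higher with Ngn3 and Pdx1, at 53.6 to 242 CPM against 9.34 to 34.6 CPM with Ngn3 and MafA (log2 difference 2.67 ± 0.50 SE, edgeR adjusted p = 0.0148). Clec2e was lower, at 0 to 2.13 CPM against 1.83 to 26.2 CPM (-6.69 ± 1.21, adjusted p = 0.0119), and so was Ttr, at 3.04 to 22.8 CPM against 5.14 to 280 CPM (-3.10 ± 0.60, adjusted p = 0.0182). Mafa was lower too, with an adjusted p of 0.0386. Il1rn, a member of the inflammatory list, was higher with Ngn3 and Pdx1 (3.06 ± 0.48 SE, edgeR adjusted p = 0.005), and Bcl2l14 missed the threshold (5.84 ± 1.33 SE, adjusted p = 0.0822).

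Of the 441 genes higher with Pdx1 at an unadjusted p under 0.05, 102 (23.1%) also had an unadjusted p under 0.05 in the same direction with Ngn3, beside 5.69% of all genes, and 8 had one in the other direction. Of the 234 genes lower with Pdx1, 19 (8.12%) did so in the same direction, beside 2.91% of all genes, and 10 in the other direction. All 24 mitosis genes had an unadjusted p under 0.05 and were higher with Pdx1 in the cells with Ngn3, with a median log2 difference of 3.41, although none passed the adjusted threshold, and 5 of the 24 DNA replication genes did so. On the Pdx1 side 13 of the 15 named genes had the same sign with Ngn3, and on the MafA side 9 of 15. Among the 234 genes lower with Pdx1 the log2 difference with Ngn3 was above 0 for 111 (47.4%), beside 53.9% of all genes, with a median of -0.02. Of the named genes with the opposite sign on the Pdx1 side, Erfe read 2.81 to 14.3 CPM with Ngn3 and MafA and 0.337 to 12.2 CPM with Ngn3 and Pdx1. Ptpru, which had no count in MafA cells, read 3.97 to 25.8 CPM with Ngn3 and MafA. The difference of the contrast without and with Ngn3 passed the threshold for 0 genes in edgeR, with 820 (3.42%) at an unadjusted p under 0.05, and DESeq2 called 25. Erfe had the unadjusted p of 4.07e-05 and the adjusted p of 0.703 in that test.

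**Figure D5:**
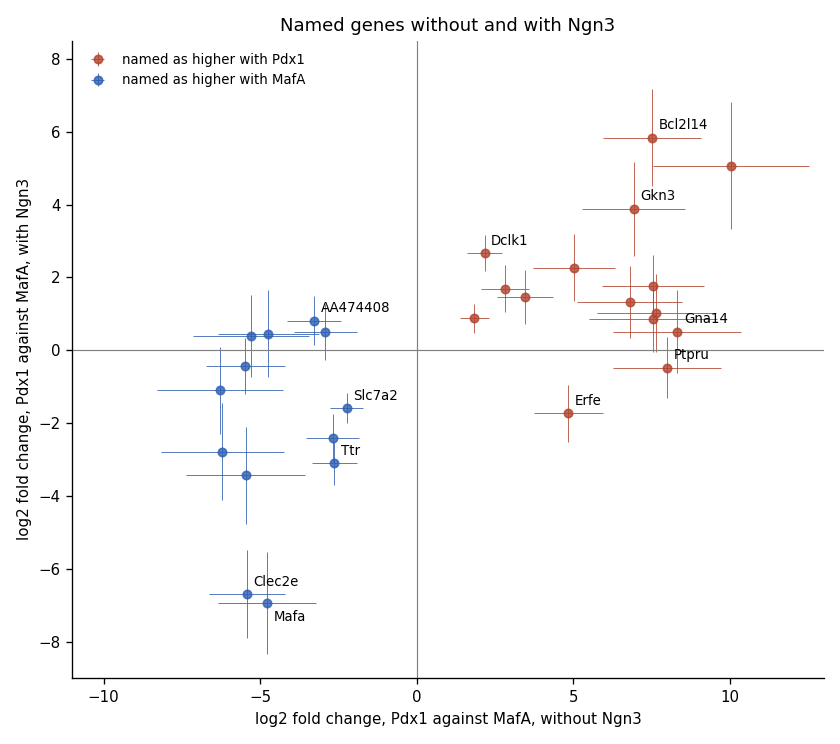
Log2 difference between Pdx1 and MafA for the named genes in cells without Ngn3 (horizontal axis) and in separate samples with Ngn3 (vertical axis); bars are standard errors and colours give the side on which a gene was named. On the Pdx1 side 13 of 15 genes kept their sign and on the MafA side 9 of 15, with Dclk1, Clec2e, Ttr and Mafa past the threshold with Ngn3, while Erfe and Ptpru were below 0 and AA474408 was above 0 with Ngn3; Gm3830 and Gm5248 are left out because they were hardly counted with Ngn3.

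The number of genes called depended on which samples set the spread. When the same edgeR test was fitted on the 4 conditions of the comparison only, 123 genes (0.512%) passed, 109 higher with Pdx1 (0.454%) and 14 lower (0.0583%). With blocks by culture and number on the same 4 conditions, 465 genes passed, 319 higher with Pdx1 and 146 lower. Groups and blocks together took up most of the samples of that fit, so little was left to measure the spread. The larger count is therefore not read here as stronger evidence. The 123 included all 15 genes named on the Pdx1 side, 4 of those on the MafA side, and 21 of the 24 mitosis genes. Of the 109, 85 were higher in all 4 pairs. Leaving out MafA replicate 1 of the WT cultures brought the count to 7 and leaving out MafA replicate 2 of the WT cultures brought it to 6, so that either of these 2 samples decided most of the calls. With the cells with both factors added to the fit, 1 gene passed, lower with Pdx1.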

How the data were processed

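RNA of pools of 50 sorted cells had been amplified, made into libraries and sequenced as single-end reads. The authors aligned these with GSNAP to the mouse genome mm10 and deposited raw counts per gene from HTSeq (version 0.5.3p3). Whether strand was used in counting is not given in the sources used here. The 92 spike-in rows were left out of library sizes. Of 61 libraries, 58 had under 25% spike-in counts, over 1000000 counts on genes and over 10000 detected genes and were kept, and technical repeats were summed to 32 samples. A gene was tested where 5 or more libraries had a count and log2(CPM + 1) varied by over 0.001 (variance), which left 24004 of 46078. CPM values use TMM-scaled library sizes.

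One model of 12 conditions was fitted with edgeR 4.0.16 (quasi-likelihood, trended dispersion, Benjamini-Hochberg adjustment, threshold 0.05, R 4.3.3). Alternatives were DESeq2 1.42.0, other scaling, filters, samples, passage, a block and each replicate left out. Named genes were the 3 factors, the 15 genes with the lowest p in each direction and up to 3 members of each of 26 lists with the lowest p. Other genes, named for a value that stood out, were chosen after their values were seen. Members and lists were chosen with earlier results of these data known. Same-numbered Pdx1 and MafA samples deviated together from their group means over the 5000 most expressed genes (r = 0.578 for WT, where the pairs mirror each other, and 0.769 and 0.414 for 6SA replicates 1 and 2), so the numbers were taken to pair the samples. The pairing comes from these correlations, not from the labels. The test was checked on simulated counts. Gene positions are from GENCODE (GRCm38).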

Additional observations from a re-analysis of the deposited data

Results flagged for a closer look

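In each of 116 sets of 4 Pdx1 or 5 MafA samples, the highest and the lowest sample were compared with the rest by Dixon's 95% limit on log2(CPM + 1). A total of 9 stood apart. The limit flags about 1 in 20 groups of normal values, a rate that need not hold for counts that are mostly 0. Where all other samples read 0, any count is flagged. In 8 of the 9 the sample was set apart by a level under 10 CPM. Among the Pdx1 samples, Mafa read 0.0902 CPM and Arhgap24 0.18 CPM in WT replicate 1, and Dab2 read 2.91 CPM and Gm9085 0.224 CPM in 6SA replicate 1, each with 0 in the other 3 samples. Among the MafA samples, Gna14 read 0.864 CPM in 6SA replicate 1 with 0 in the other 4, and Fetub read 0.749 CPM in the same sample against at most 0.162 CPM. Gm37607 read 7.91 CPM in the passage 5 sample against 0.81 to 1.71 CPM, and Gm5248 read 0.925 CPM in WT replicate 2 against 0.107 to 0.264 CPM. AA474408 was the exception in size, at 1972 CPM in MafA WT replicate 2 against 4.38 to 8.44 CPM in the other MafA samples.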

How the results depend on the processing

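Counts of called genes for Pdx1 against MafA were 0 under RLE scaling, the filterByExpr filter, every library kept, the first technical repeat, passage 2 only and every replicate left out. They were 24 with DESeq2, 113 with no gene filter, 123 with only the 4 conditions, 1 with the replicate block and 2 with the replicate block by culture. Alternatives chosen after seeing the data gave, on the 4 conditions only, 169 at passage 2, 465 with the block by culture, 31 with DESeq2 and 6 to 169 with a replicate left out (141 and 149 without MafA 6SA replicates 1 and 2, 87 and 66 without Pdx1 6SA replicates 1 and 2, 89 and 56 without Pdx1 WT replicates 1 and 2), and 1 on the 6 conditions without Ngn3. In WT cultures DESeq2 gave 14, no filter 30 and the fit on only the WT conditions compared 52. In 6SA cultures DESeq2 gave 8 and no filter 70. The difference between cultures gave 7, 6 and 2 with DESeq2, no filter and the 4 conditions. With Ngn3, DESeq2 gave 285, legacy=FALSE 101, no filter 634, the replicate block 216, the block by culture 255, the first repeat 55 and leaving out a replicate 15 to 51. The difference without and with Ngn3 gave 25 with DESeq2 and 126 with no filter. Of 1646 values of 50 named genes, 4 reversed: Neurog3 to -0.92 and, on the 4 conditions, -0.67 without Pdx1 WT replicate 1, and AA474408 to 0.50 and 0.51 without MafA WT replicate 2. With each replicate left out in turn, Neurog3 ranged from -0.92 to 2.23 and AA474408 from -3.89 to 0.50. On the 4 conditions, members called were 21 of 24 for mitosis and 2 of 24 for foregut genes, beside 0.512% of all genes. The β-cell (22 tested), DNA replication (24), NF-kB (20), interferon (21), Notch (16) and YAP (15) lists had 1 each. The NF-kB member was lower with Pdx1 and all the others were higher. The acinar median was 1.37 with the replicate block and the endothelial median -1.35 at passage 2. The cause of these shifts was not tested. Apart from Bcl2l14 and Gkn3, the replicate block changed no call of a gene named above in the comparison without Ngn3 when all conditions were fitted. This does not extend to the 4 conditions only, where the block by culture took the count from 123 to 465. Onecut2, Mcm5 and Gadd45a each passed in 1 alternative chosen after seeing the data and in no planned one. Genes below about 1 CPM lie under the level of 3 counts in the shallowest samples.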
